A study of Homo sapiens with 4 samples.

Results

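Broad CDK8 regions are the stretches wider than 2000 bp that arise when touching or overlapping peaks of the 3 deposited CDK8 peak lists are joined. On chromosomes 1 to 22 and X, 223 of 28023 joined regions passed this width, which is 0.796% of the regions and 5.15% of the joined length (0.663 of 12.9 Mb). The peaks came from chromatin immunoprecipitation with an antibody against CDK8, followed by sequencing, in HCT116, an established human colorectal cancer line. There was 1 library from cells in normoxia and 2 libraries, labelled replicates 1 and 2, from cells held for 24 h in hypoxia at 1% oxygen; the input was not used. Whether replicates 1 and 2 are separate cultures is not stated in the labels, and their difference may be technical; normoxia has no replicate. No p-value is given for any difference: 1 library was set against 2, and the regions were chosen by widths that come from the same peaks as most values below.

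CDK8 is a cyclin-dependent kinase. With cyclin C, MED12 and MED13 it forms the kinase module of Mediator, the complex that carries signals from transcription factors bound at enhancers to RNA polymerase II at promoters. Mediator is known to be spread over long stretches at some highly transcribed genes and at clustered enhancers, where neighbouring binding sites run into one another. In hypoxia, HIF1A pairs with ARNT at the short element RCGTG and raises genes of glycolysis, lactate export and growth restraint; CDK8 is known as a coactivator at several of these genes.

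Locus names are given from general knowledge of the GRCh37/hg19 map, the build of the peak lists, because no gene annotation of that build was used here. A name says which gene is known to lie at the region, not that a distance to it was measured. Names were given to 105 regions at 85 loci; 11 regions were placed beside a centromere and 107 were left without a name. All 85 loci lie on the same chromosome and in the same order in a RefSeq table of GRCh38.p14. This compares chromosome and order alone and could miss a name taken from a neighbouring gene.

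Sequences of the regions themselves were not read, since no genome of the lists' build was used. Promoter sequences from RefSeq (GRCh38.p14), each the 250 bases before the transcription start in the gene's own direction, are shown for 5 loci. At these, hypoxia replicate 2 covered the broad regions more than the other libraries did. The same held at further loci that are not shown, ALDOA and SLC16A3 among them. Capitals mark ACGTG or GCGTG, the cores of the HIF element, on either strand (CACGT and CACGC when read on the other one). ADM (chr11:10304823-10305072, plus strand) encodes adrenomedullin, a vasodilator peptide. DDIT4 (chr10:72273674-72273923, plus strand) encodes an inhibitor of mTORC1. BHLHE40 (chr3:4979187-4979436, plus strand) encodes a basic helix-loop-helix repressor. ENO1 (chr1:8878687-8878936, minus strand) and GAPDH (chr12:6535014-6535263, plus strand) encode the glycolytic enzymes enolase and glyceraldehyde-3-phosphate dehydrogenase.
ADM: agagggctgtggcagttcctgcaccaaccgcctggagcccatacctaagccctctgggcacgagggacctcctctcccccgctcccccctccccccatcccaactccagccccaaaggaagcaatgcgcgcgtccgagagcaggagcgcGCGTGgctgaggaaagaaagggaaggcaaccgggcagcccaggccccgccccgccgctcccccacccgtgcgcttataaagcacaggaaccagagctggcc
DDIT4: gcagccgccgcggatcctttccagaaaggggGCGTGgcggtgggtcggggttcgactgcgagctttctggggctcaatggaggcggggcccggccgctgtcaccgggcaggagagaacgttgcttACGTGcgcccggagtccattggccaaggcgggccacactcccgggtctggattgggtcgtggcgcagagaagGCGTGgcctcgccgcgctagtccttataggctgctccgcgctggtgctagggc
BHLHE40: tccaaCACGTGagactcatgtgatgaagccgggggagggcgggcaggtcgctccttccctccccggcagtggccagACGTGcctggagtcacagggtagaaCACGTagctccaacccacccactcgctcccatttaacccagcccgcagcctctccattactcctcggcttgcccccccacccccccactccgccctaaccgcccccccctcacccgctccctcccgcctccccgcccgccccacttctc
ENO1: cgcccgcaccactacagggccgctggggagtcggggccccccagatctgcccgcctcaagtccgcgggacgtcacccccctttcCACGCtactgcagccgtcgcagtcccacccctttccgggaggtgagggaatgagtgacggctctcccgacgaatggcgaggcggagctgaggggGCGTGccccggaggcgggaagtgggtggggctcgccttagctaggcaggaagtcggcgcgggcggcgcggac
GAPDH: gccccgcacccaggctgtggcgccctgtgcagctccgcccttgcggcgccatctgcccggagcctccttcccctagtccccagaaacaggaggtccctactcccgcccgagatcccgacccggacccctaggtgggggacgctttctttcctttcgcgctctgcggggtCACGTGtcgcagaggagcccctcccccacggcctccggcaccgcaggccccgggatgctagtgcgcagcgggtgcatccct

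DDIT4 held 3 of these matches and BHLHE40 4, with an E-box CACGTG counted once on each strand. Among the 7 loci of hypoxia response and glycolysis with a broad region, 6 promoters held ACGTG or GCGTG and 4 held ACGTG, which 20.8% of the table's protein-coding promoters and 25% of the named protein-coding loci held. The other core was held by 3 of the 7 promoters (42.9%). This was below the 51.5% of the named protein-coding loci and close to the 39.2% of the table's protein-coding promoters. The promoter of SLC16A3 held neither core. Of all 85 named loci, 71 had a promoter in the table and 68 of these were protein-coding; 44 of the 68 (64.7%) held ACGTG or GCGTG, against 50.5% of the 15843 protein-coding promoters of the table. Their median GC content was 68.8% against 62.4%, so the named promoters were richer in G and C than the table. TATAAA between 40 and 20 bases before the start was found in 11 of 68 (16.2%), against 3.58% of the table. The AP-1 site TGACTCA was in 3 of 68 (4.41%, against 3.17%), and the CRE site TGACGTCA in 3 of 68 (4.41%, against 2.32%). These counts cover the letters in 1 window per gene, and whether that window lies inside the broad region was not read. The genes were named by hand and regions without a name add no promoter, so the counts do not describe the broad regions as a set.

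Some of the widest regions lie at or near microRNA genes. Their mature sequences from RefSeq (GRCh38.p14) follow, with the seed (bases 2 to 8) in capitals; miR-29a and miR-29b share their seed.
hsa-miR-21-5p: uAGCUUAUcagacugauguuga
hsa-miR-31-5p: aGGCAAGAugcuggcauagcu
hsa-miR-29a-3p: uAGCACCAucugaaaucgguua
hsa-miR-29b-3p: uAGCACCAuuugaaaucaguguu

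The widths of the broad regions ran from 2003 to 8491 bp with a median of 2656 bp (quartiles 2206 and 3296.5 bp). Narrower regions had a median of 366 bp. Of the 223, 126 were wider than 2500 bp, 75 wider than 3000 bp, 30 wider than 4000 bp and 15 wider than 5000 bp. Just inside the threshold lay chr3:9437759-9439761 (2003 bp), the SFN region chr1:27190190-27192197 (2008 bp) and chr16:2202414-2204423 (2010 bp). Just outside lay chr2:70368180-70370178 (1999 bp), chr7:130644403-130646384 (1982 bp) and chr1:27326988-27328961 (1974 bp). Members and non-members at this edge therefore differed in width by a few bp.

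The widest region was at MIR21, the gene of an abundant oncogenic microRNA at the end of VMP1 (chr17:57914136-57922626, 8491 bp). Normoxia listed it as 1 peak of 8447 bp, the widest single peak of the 3 lists, and each hypoxia library listed it as 2 peaks. Coverage, the share of a region's width that lies in a library's peaks, was 99.5% in normoxia, 90.5% in replicate 1 and 91.4% in replicate 2. All 3 libraries thus listed nearly the whole stretch. Near MIR29A and MIR29B1 on chromosome 7, a region of 5475 bp (chr7:130578732-130584206) was covered over 98.1% in normoxia, 94.7% in replicate 1 and 63.4% in replicate 2, and was split into 2, 3 and 4 peaks.

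Response genes, which growth factors, stress or BMP signals induce quickly and which often feed back on the signal, formed the largest named group with 23 regions at 21 loci. The groups were formed by hand from the named regions, and the share of such genes over all joined regions was not counted. Group sizes and median widths thus depend on which genes were named. PHLDA1, an early response gene with a pleckstrin homology-like domain (chr12:76418789-76426671, 7883 bp), was a single peak over its whole width in hypoxia replicate 1. Normoxia listed 3 peaks there over 90.8% of the width and hypoxia replicate 2 listed 5 over 85.2%. ERRFI1 encodes a feedback inhibitor of the EGF receptor. Its region of 5758 bp (chr1:8082894-8088651) was covered over 64.1% in normoxia, 74.6% in replicate 1 and 95.9% in replicate 2, in 4, 3 and 2 peaks. TRIB1, a pseudokinase gene, had a region of 5275 bp covered over 90.2%, 93.4% and 86.9% in the same order. ERRFI1 and TRIB1 were thus least fragmented in hypoxia replicate 2, and PHLDA1 in hypoxia replicate 1.

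The ID genes encode helix-loop-helix proteins that block the DNA binding of their partners and are known targets of BMP signalling. ID1 (chr20:30191689-30197528, 5840 bp) was covered over 97.4% in normoxia, 93.1% in hypoxia replicate 1 and 86.4% in replicate 2. ID3 (chr1:23882000-23886499, 4500 bp) was covered over 94.1%, 91.7% and 41.1%, and its peaks numbered 1, 2 and 4. At the ID2 region of 2932 bp the values were 100%, 80.9% and 58.1%. Each of these had its highest value in normoxia and its lowest in hypoxia replicate 2. Regions of more than 2000 bp were also found at MYC, JUNB, JUND, IER2, IER3, ZFP36, ZFP36L1, SPRY4, DUSP5, CDKN1A and GADD45A, each listed in all 3 libraries.

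Among secreted signals and receptors, DKK1, an inhibitor of Wnt signalling (chr10:54072958-54079321, 6364 bp), was 1 peak over the whole width in hypoxia replicate 1, 3 peaks over 95.7% in normoxia and 5 peaks over 70.6% in hypoxia replicate 2. NTSR1, the neurotensin receptor gene, had 3 regions, of which the widest (chr20:61367791-61373184, 5394 bp) was covered over 94.9%, 89.0% and 59.9%. HMGA2, an architectural chromatin protein (chr12:66216374-66222698, 6325 bp), was 3 peaks in each library, over 96.9% of the width in normoxia, 91.5% in replicate 1 and 90.04% in replicate 2. KRT19, a keratin of simple epithelia (5017 bp), was covered over 86.3%, 90.8% and 98.9%, and PDP1, a phosphatase that activates pyruvate dehydrogenase (5012 bp), over 94.5%, 98.5% and 83.8%.

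Non-coding RNA genes, MIR21 and 4 long non-coding loci, made up 8 regions with the largest median width of the named groups (4508.5 bp). SNHG3, a small nucleolar RNA host gene (chr1:28831926-28838950, 7025 bp), was covered over 94.4% in normoxia, 76.8% in hypoxia replicate 1 and 36.3% in replicate 2, in 2, 5 and 4 peaks. MALAT1, a nuclear RNA of speckles (chr11:65264709-65269715, 5007 bp), was covered over 95.7%, 90.2% and 61.3%. NEAT1, the RNA scaffold of paraspeckles, carried a pair of regions of 3940 and 3182 bp that lay 7 bp apart. At MIR31HG, the host transcript of miR-31, a region of 4534 bp (chr9:21519353-21523886) was 1 peak over 99.8% in normoxia and 1 peak over 98.4% in replicate 1, and held no peak of replicate 2. The second MIR31HG region (chr9:21556494-21560976, 4483 bp) was listed in all 3, over 86.1%, 100% and 61.0%. Of the 7 non-coding regions in all 3 libraries, MIR21 included, 0 were most covered in hypoxia replicate 2, against 17.1% of the broad regions in all 3.

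**Figure D1:**
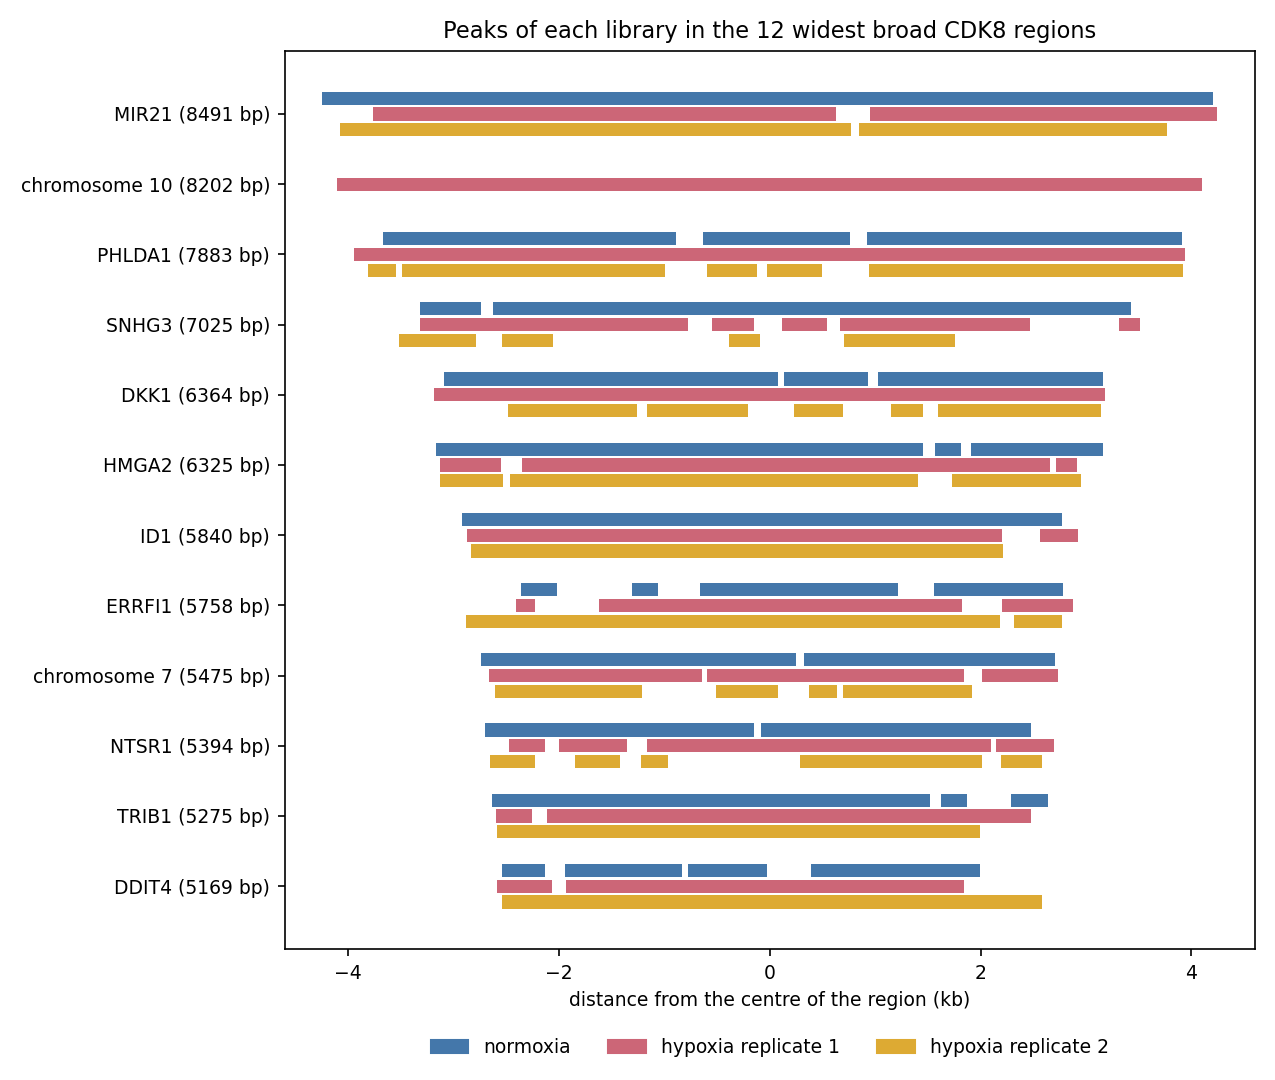
Peaks of each library in the 12 widest broad regions, drawn as bars against the distance from the centre of the region in kb, with 1 row per region and 1 colour per library. The MIR21 region is nearly filled in all 3 libraries, the region of 8202 bp on chromosome 10 holds a peak of hypoxia replicate 1 alone, and DDIT4 is 1 peak only in hypoxia replicate 2.

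Presence in the libraries came first. Of the 223 regions, 199 (89.2%, Wilson 95% interval 84.5 to 92.7%, which covers counting error only) held a peak of all 3 libraries. Over all joined regions the share was 33.2%. Joining several lists widens a region, so presence in all 3 was partly set by the rule. Normoxia listed 211 of the broad regions, hypoxia replicate 1 222 and hypoxia replicate 2 201, against 69%, 74.6% and 48.5% of all regions. No broad region was in normoxia alone or in hypoxia replicate 2 alone, patterns that held 13.3% and 5.48% of all regions.

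The exceptions fell into 4 patterns. Normoxia and hypoxia replicate 1 shared 11 regions that replicate 2 lacked (4.93%, against 15.9% of all regions); the widest were the MIR31HG region of 4534 bp, chr19:10223605-10226627 (3023 bp) and a region at DCBLD2, a transmembrane receptor-like gene (chr3:98547590-98550477, 2888 bp). A further 11 were in hypoxia replicate 1 alone, against 22.3% of all regions. Only chr10:74087572-74090074 (2503 bp) was in normoxia and hypoxia replicate 2, a pattern of 6.68% of all regions; replicate 2 covered 100% of it and normoxia 15.5%. Only chr1:8071914-8074869 (2956 bp), beside ERRFI1, was listed in hypoxia by both replicates while normoxia had no peak there, a pattern of 3.19% of all regions. Replicate 2 covered 93.7% of it and replicate 1 8.73%. Both this region and the one on chromosome 10 passed the width only through peaks of replicate 2. Without replicate 2 the longest stretch left was 258 bp here and 388 bp on chromosome 10. The high coverage in replicate 2 was therefore partly set by the rule in both.

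The regions of hypoxia replicate 1 alone stood apart. The widest were chr10:42354903-42363104 (8202 bp), chr1:142535392-142539723 (4332 bp) and chr10:42375339-42379413 (4075 bp). Of the 11, 10 lie beside a centromere by general knowledge of the map, on chromosomes 1, 2, 4, 10, 17 and 18, and the last is chr3:75697052-75699182. Each was 1 peak over 100% of its width, which follows from the joining, since peaks of 1 list that do not touch stay separate regions. The only other region placed beside a centromere, chr6:58776393-58779414 (3022 bp), was listed in all 3 libraries, over 92.8%, 80.5% and 94.8%. Without them, 199 of 212 broad regions (93.9%) were in all 3 libraries.

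Fragmentation is the number of peaks into which a library splits a region. Of the broad regions that a library listed, normoxia gave 1 peak for 101 of 211 (47.9%, interval 41.2 to 54.6%), hypoxia replicate 1 for 94 of 222 (42.3%, 36.03 to 48.9%) and hypoxia replicate 2 for 74 of 201 (36.8%, 30.5 to 43.7%). Over all listed regions the shares were 97.6%, 95.9% and 95.9%, and a region made of several peaks is wide by construction. The intervals of the 3 libraries overlapped one another. The order of the libraries turned when peaks within 500 bp were joined, with shares of 12.9%, 10.7% and 23.2%.

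**Figure D2:**
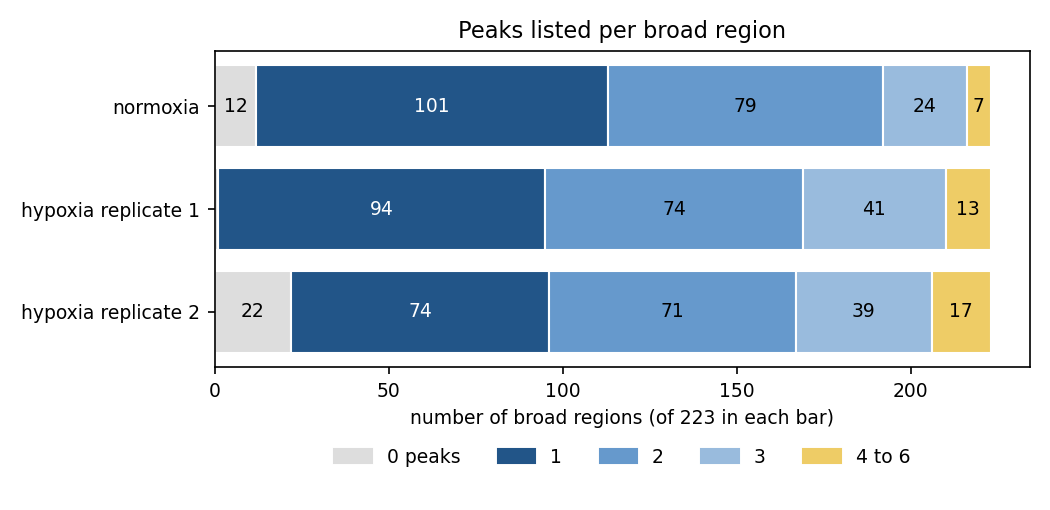
Number of broad regions (horizontal axis) that each library listed as no peak, 1 peak, 2, 3, or 4 to 6 peaks, as stacked bars that each sum to the 223 regions. Hypoxia replicate 2 has the longest segments for no peak (22 regions) and for 4 to 6 peaks (17 regions).

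In total the broad regions held 361 peaks of normoxia, 421 of hypoxia replicate 1 and 406 of hypoxia replicate 2. The most peaks of 1 library were 6, in hypoxia replicate 1, at chr22:37722745-37727517 (4773 bp), which normoxia listed as 2 peaks and replicate 2 as 5. Gaps between neighbouring peaks of a region were short, with medians of 143 bp (normoxia), 138 bp (replicate 1) and 188 bp (replicate 2), and the longest was 1670 bp. Of the 199 regions in all 3 libraries, 18 were 1 peak in each, among them IER2, IER3 and the histone genes HIST1H1E and HIST2H2BE. Another 44 were split in every library, and 155 were 1 peak in at least 1.

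A single peak wider than 2000 bp was listed by normoxia in 111 broad regions, by replicate 1 in 107 and by replicate 2 in 54. At least 1 library had such a peak in 173 of the 223 (77.6%), all 3 had one in 27, and 50 (22.4%) passed the width only by joining. The widest single peaks were at MIR21 in normoxia (8447 bp), on chromosome 10 in hypoxia replicate 1 (8202 bp) and at DDIT4 in hypoxia replicate 2 (5122 bp).

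Coverage was high in normoxia and hypoxia replicate 1 and lower in hypoxia replicate 2. Over the 223 regions the median was 92.4% in normoxia (quartiles 80.8 and 96.6%), 89.1% in replicate 1 (76.5 and 96.5%) and 63.6% in replicate 2 (41.7 and 85.9%). At least 50% of the width was covered in 204 regions (91.5%) in normoxia, 210 (94.2%) in replicate 1 and 150 (67.3%) in replicate 2, against 67.5%, 68.1% and 43.4% of all regions. Hypoxia replicate 2 also had the shortest peak list, 14256 peaks against 19862 in normoxia and 21993 in replicate 1. With the 14256 best peaks of each list, the shares covered over at least 50% were 89.6%, 92.5% and 67.5%. In the 199 regions of all 3 libraries, a median of 53.9% of the width was listed by all 3 and 86.2% by at least 2.

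Normoxia could be set against hypoxia only with the difference between the hypoxia libraries as error. The median absolute difference in coverage over the 199 regions was 25.1 points between the hypoxia libraries, 9.62 between normoxia and replicate 1 and 27.5 between normoxia and replicate 2. Normoxia was above both hypoxia libraries in 101 regions (50.8%, against 56.6% of all regions in 3 libraries), below both in 17 (8.54%, against 12.1%) and between them in 81. It was above both by more than the hypoxia libraries differed in 30 (15.1%, against 29.1%) and below both by more than that in 4 (2.01%, against 4.94%). None of these 4 shares exceeded its background.

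Regions with lower coverage in both hypoxia libraries were named after their values were seen. The region with the largest drop is given, with 2 at named loci out of the 30 above. At chrX:39964020-39966335 (2316 bp) coverage was 100% in normoxia, 32.4% in replicate 1 and 33.9% in replicate 2. At YAP1, the growth coactivator of the Hippo pathway (chr11:101980645-101983071, 2427 bp), it was 92.3%, 63.1% and 66.2%, and at TNRC18 (2099 bp) 94.6%, 49.5% and 44.2%. That the hypoxia libraries lay below normoxia and closer to each other follows from the way the 30 were chosen. Normoxia alone listed 937 bp of the chromosome X region, 589 bp of the YAP1 region and 812 bp of the TNRC18 region. Each of these regions passed the width only through peaks of normoxia, so the lead of normoxia there was partly set by the rule. The 4 regions at which normoxia was below both by more than the hypoxia libraries differed included chr12:125393901-125396094 (64.9%, 86.2% and 98.997%), the SLC16A3 region of 4562 bp (81.8%, 87.2% and 90.4%) and the SLC38A2 region of 2098 bp (93.5%, 94.1% and 94.1%). SLC16A3 encodes the lactate exporter MCT4, and SLC38A2 an amino acid transporter.

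The loci of hypoxia response and glycolysis went against the low coverage of hypoxia replicate 2. Replicate 2 was the lowest of the 3 libraries in 142 of 199 regions (71.4%, against 41.7% of all regions in 3 libraries) and the highest in 34 (17.1%, against 22.3%). At these 7 loci (DDIT4, SLC16A3, ADM, GAPDH, BHLHE40, ENO1 and ALDOA) it was the highest in 9 of 9 regions. In the remaining 190 regions it was the highest in 25 (13.2%). The group was put together from gene function after the peak counts had been seen. Of its loci, DDIT4, ADM and BHLHE40 were on the planned list of hypoxia genes, and SLC16A3, GAPDH, ENO1 and ALDOA were not. Most of its members also passed the width only through peaks of replicate 2: 7 of the 9, against 26 of the other 190. Such regions tend to be widest there by the rule, and 13 of those 26 (50%) were highest in replicate 2. Among regions that passed without replicate 2 it was the highest in both at these loci and in 12 of 164 (7.32%) elsewhere. Among regions that passed only with replicate 2, replicate 2 was the highest in 7 of 7 at these loci and in 13 of 26 elsewhere. The contrast of 9 of 9 with 13.2% was therefore partly set by the rule. How large that part is was not tested, and the contrast is a description with no test.

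Glycolytic enzyme genes gave the largest gaps. At ALDOA, the aldolase gene (chr16:30076212-30078549, 2338 bp), peaks spanned 1085 bp in normoxia, 988 bp in replicate 1 and 2338 bp in replicate 2, which is 46.4%, 42.3% and 100%. ENO1 (chr1:8936930-8939577, 2648 bp) was covered over 55.7%, 49.2% and 100%. GAPDH held a pair of regions: chr12:6641580-6645684 (4105 bp), at 54.4%, 53.6% and 99.8%, and chr12:6647125-6649220 (2096 bp), at 50.4%, 42.3% and 92.6%. In all 4 of these, normoxia and hypoxia replicate 1 were close together and replicate 2 was near complete. All 4 passed the width only through peaks of replicate 2, so high coverage there was partly set by the rule. The longest stretch left without replicate 2 was 1125 bp at ALDOA, 1504 bp at ENO1, and 1520 and 886 bp at GAPDH. The wider GAPDH region was 5 peaks in normoxia, 3 in replicate 1 and 1 in replicate 2.

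The signalling and stress targets of hypoxia were also most covered in replicate 2, with smaller gaps. ADM (chr11:10326001-10330282, 4282 bp) was covered over 67.2%, 51.4% and 100%, in 3, 2 and 1 peaks. BHLHE40 (chr3:5019843-5022688, 2846 bp) was at 72.2%, 49.5% and 99.9%. DDIT4 (chr10:74032506-74037674, 5169 bp) was at 74.9%, 83.1% and 99.1%, in 4, 2 and 1 peaks, and its best peak stood at percentile 97.7 of the normoxia list, 98.7 of replicate 1 and 99.9 of replicate 2 (100 is the best peak of a list by the authors' score). The SLC16A3 region of 3464 bp (chr17:80186074-80189537) was at 73.8%, 80.6% and 96.7%. In coverage, hypoxia replicate 1 exceeded normoxia at DDIT4 and at both SLC16A3 regions, and was below it in the other 6. Over the 9 regions the median percentile of the best peak was 93.1 in normoxia, 93.3 in replicate 1 and 98.9 in replicate 2. Percentile did not follow coverage at SLC16A3. It was 87.6, 93.3 and 66.3 at the region of 4562 bp, and 98.7, 96.7 and 97.6 at the region of 3464 bp.

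**Figure D3:**
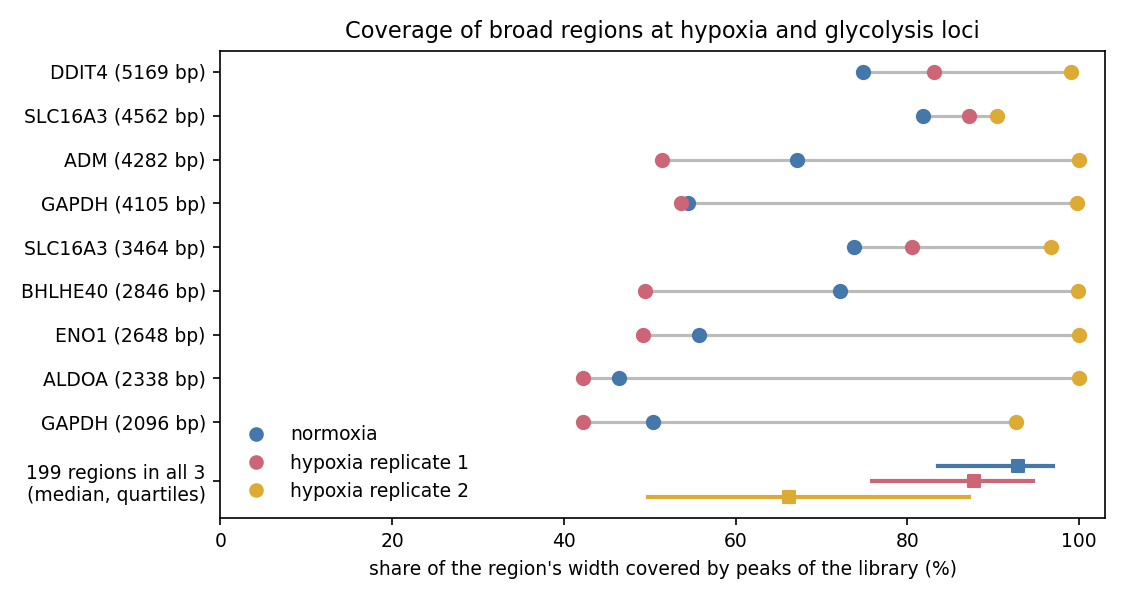
Coverage in percent of the region's width in each library for the 9 broad regions at hypoxia and glycolysis loci, 1 row per region and 1 point per library; the bottom rows give the median (square) and quartiles (line) over the 199 broad regions in all 3 libraries. Hypoxia replicate 2 is the highest point at each of the 9, between 90.4% and 100%, while hypoxia replicate 1 lies above normoxia at 3.

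These regions owed part of their width to replicate 2. It listed 8 of the 9 as 1 peak, normoxia and replicate 1 listed 2 each, and a median of 27.5% of their width (range 2.35 to 51.9%) was in its peaks alone, against a median of 0% in the other 190 regions. With the peaks of replicate 2 left out, 2 of the 9 (DDIT4, 3933 bp, and the SLC16A3 region of 4562 bp, 2337 bp) still held a joined region over 2000 bp, against 164 of 190 (86.3%). The longest stretch left was 1530 bp at ADM, 1504 bp at ENO1 and 1125 bp at ALDOA. In replicate 1, the other library of the same condition, the widening was not present at 6 of the 9, and normoxia was below both hypoxia libraries by more than these differed only at the SLC16A3 region of 4562 bp. At the other 8 a difference between the conditions was thus not larger than that between the hypoxia libraries.

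**Figure D4:**
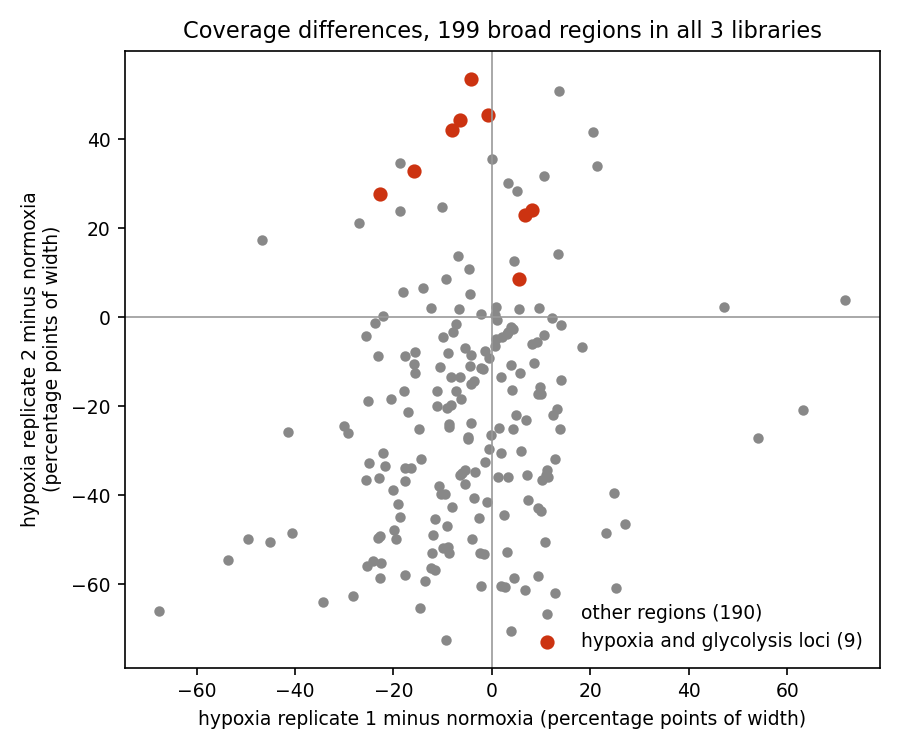
Coverage of hypoxia replicate 1 minus normoxia (horizontal axis) against hypoxia replicate 2 minus normoxia (vertical axis), both in percentage points of the region's width, with 1 point for each of the 199 broad regions in all 3 libraries. The 9 regions at hypoxia and glycolysis loci all lie above 0 on the vertical axis, 3 of them to the right of 0 on the horizontal axis, while most other points lie below 0 on the vertical axis.

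Hypoxia replicate 2 also led at some regions outside this group, named after their values were seen. GPRC5A, a retinoic acid-inducible receptor gene (2118 bp), was at 43.2%, 56.8% and 94.0%. ACTG1, the gene of gamma actin, was at 65.3%, 46.6% and 100% in its region of 2212 bp, and TMSB10, an actin-binding thymosin (2656 bp), at 74.96%, 56.4% and 98.8%. The regions at GPRC5A, ACTG1 and TMSB10 passed the width only through peaks of replicate 2, so its lead there was partly set by the rule. Without it the longest stretch left was 1012, 1184 and 1074 bp. At ERRFI1, 3 broad regions lay within 20.4 kb, and peaks covered 32.6% of that span in normoxia, 33.4% in replicate 1 and 80.3% in replicate 2. The middle region of this run passed the width only through peaks of replicate 2, with 258 bp left without it. The run of 3 and the coverage of its span were thus partly set by the rule. Among the response genes, 5 of 23 regions (21.7%) were highest in replicate 2, close to the 17.1% of all broad regions in 3 libraries.

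Broad regions held some of the best-scoring peaks of each list. The score took part in the calling of the peaks, so this is a description. The best peak of a region had a median percentile of 96.6 in normoxia, 95.8 in replicate 1 and 94.1 in replicate 2. It reached percentile 90 in 153 of 211 (72.5%), 158 of 222 and 126 of 201 regions, against 10.2%, 10.3% and 10.3% of all regions. The best peaks of the libraries overlapped in most regions: 208 of 210 for normoxia and replicate 1, 193 of 200 for normoxia and replicate 2, and 184 of 200 for the hypoxia libraries.

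A measure the rule did not use came from leaving 1 library out. Regions wider than 2000 bp were joined from 2 lists and then looked up in the third. Of those from the hypoxia libraries, 140 of 152 (92.1%, interval 86.7 to 95.4%) held a peak of normoxia, against 65.4% of all regions. Of those from normoxia and replicate 2, 154 of 155 (99.4%, 96.4 to 99.9%) held one of replicate 1, against 67.8%. Of those from normoxia and replicate 1, 168 of 190 (88.4%, 83.1 to 92.2%) held one of replicate 2, against 46%. Regions of 1000 to 2000 bp came close to these shares, with 90.7%, 96.3% and 87.0%, and their intervals overlapped with those of the broad regions in each library; regions of 500 bp or less were at 57.9%, 60.2% and 34.3%.

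Width itself was found again in the library left out. A single peak wider than 2000 bp was listed by normoxia in 76 of the 152 (50.0%, interval 42.1 to 57.9%), by hypoxia replicate 1 in 75 of the 155 (48.4%, 40.7 to 56.2%) and by hypoxia replicate 2 in 41 of the 190 (21.6%, 16.3 to 28.0%). Over all regions the shares were 0.778%, 0.674% and 0.292%. Regions of 1000 to 2000 bp stood at 5.03%, 3.01% and 1.41%, below the lower bound of each interval. A wider region can meet more peaks by its width alone, but a single wide peak was thus seen in the third list at a share that the next narrower class did not reach.

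**Figure D5:**
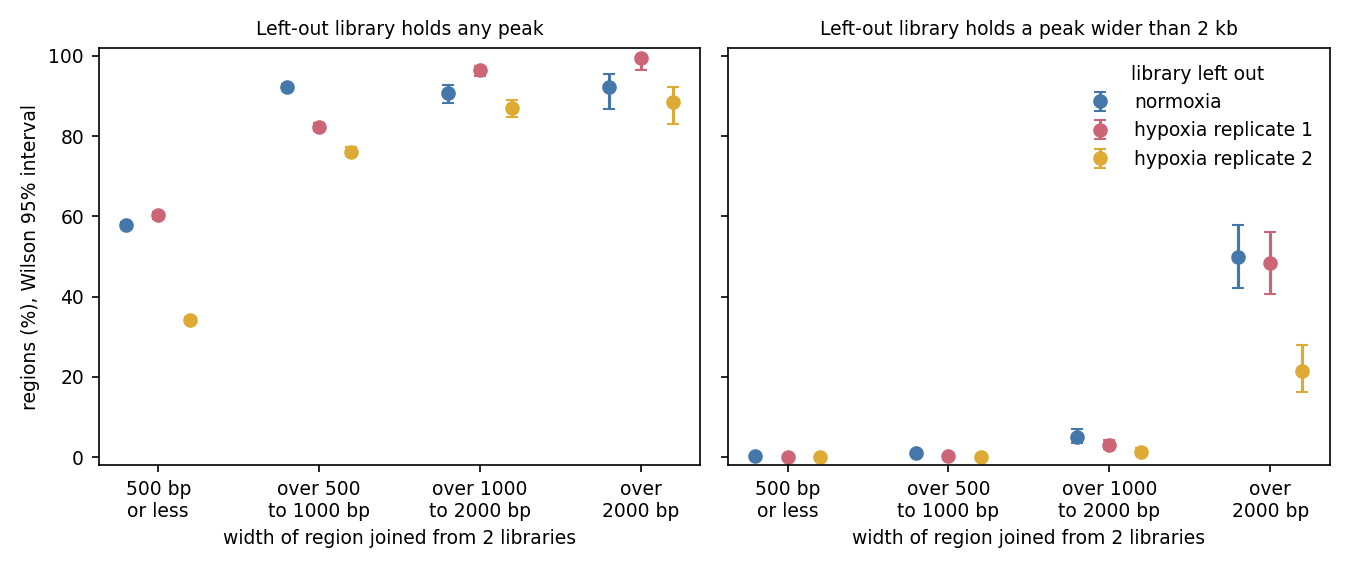
Share of regions, in percent, that the library left out listed with any peak and with a peak wider than 2000 bp, by the width class of regions joined from the other 2 libraries, with Wilson 95% intervals as bars. Any peak is found in most regions above 1000 bp, while a wide peak is found in 50.0%, 48.4% and 21.6% of broad regions and in at most 5.03% of the next class.

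Broad regions had close neighbours. Another region of any width lay within 1 kb of 172 of the 223 (77.1%), against 32.9% of the narrower regions, and the median distance to the nearest region was 0.216 kb against 5.27 kb. Another broad region lay within 50 kb of 97 (43.5%), which formed 44 runs. DLGAP1, a gene of a postsynaptic scaffold protein, had the run with the most members, 4 broad regions over 61.9 kb of chromosome 18; peaks covered 36.8% of that span in normoxia, 31.9% in replicate 1 and 16.6% in replicate 2. Runs of 3 lay at MIR31HG (73.1 kb), NTSR1, ID1, ACTG1 and ERRFI1 and at 2 places on chromosome 9. At the DLGAP1 run replicate 2 was the lowest library. At the ERRFI1 run it was the highest, where the middle region passed the width only through peaks of replicate 2.

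Over the chromosomes, chromosome 6 had 23 broad regions, which was 1.46% of its regions (interval 0.973 to 2.18%) against 0.796% over all. It is given first because it had the most broad regions. Broad regions often lay in runs, on chromosome 6 at IER3, HMGA1 and EEF1A1 among others. The intervals treat regions as independent and may therefore be too narrow. Chromosome 17 had 20 (1.09%), chromosome 19 had 19 (1.13%) and chromosome 1 had 18 (0.684%). Chromosome 18 had 7 (1.50%, interval 0.726 to 3.05%), the run at DLGAP1 among them. Chromosomes 13 and 15 had 1 each, at TSC22D1 and USP3. Chromosome 21 had 0 of its 416 regions, and the interval up to 0.915% holds the share over all.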

How the data were processed

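CDK8 ChIP-seq libraries of HCT116 cells were deposited by the authors as peak lists, 1 per library, each line giving a position and the authors' score, whose scale is not stated. MACS2 2.0.9, Bowtie 0.12.7, CASAVA 1.8.2 and FastQC, with the build GRCh37/hg19, are named per the submitters' processing notes; no role, parameter or read depth is stated there. A peak missing from a list may have fallen just under its threshold. Starts were converted to count from 1. Peaks of any list that touched or overlapped were joined and regions over 2000 bp kept; a library was present with at least 1 bp. Scores were used only as percentiles within a list. Shares have Wilson 95% intervals for counting error only. The joining was tested on simulated lists.

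The members and lists were chosen with earlier results of these data known. The regions named are the 20 widest, the 3 widest of each pattern other than all 3 libraries, the 5 with the most peaks in a library, the 5 with the widest peak of each library, and the 3 on each side of the threshold; other loci were chosen after their values were seen. Planned counts of transcription starts and of listed genes were not run, since no GRCh37/hg19 annotation was used here. Alternatives were other widths, joining distances, score thresholds, list sizes and sets of libraries. Python 3.11.15, numpy 2.4.6, pandas 2.3.3, scipy 1.17.1 and matplotlib 3.10.9 were used. One of the regions less covered in normoxia is not reported here.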

Additional observations from a re-analysis of the deposited data

Results flagged for a closer look

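On chromosome Y, which the region rule leaves out, 4 joined regions passed the width, of 2169, 2737, 2821 and 3218 bp. Each was 1 peak of hypoxia replicate 1 and held no peak of normoxia or hypoxia replicate 2. A signal of 1 library outside the analysed chromosomes drew attention to them. The 11 broad regions of hypoxia replicate 1 alone on the analysed chromosomes were also 1 peak each. The joining gives this form to a region held by 1 library alone, so it is no likeness between them.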

How the results depend on the processing

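Of 85 values recomputed under alternatives, 44 stayed within the counting interval or within 1.5 times the count and 41 moved. Above 3000 bp there were 75 regions; the share listed as 1 peak was 40% in normoxia and 29.4% in hypoxia replicate 2, the share covered over at least 50% was 100% in replicate 1 and 78.7% in replicate 2, and replicate 1 held a peak in 100% of the regions joined from the others. Joining peaks within 500 bp gave 614 regions, 83.2% of them in all 3 libraries; in the order normoxia, replicate 1 and replicate 2, 12.9%, 10.7% and 23.2% were 1 peak (replicate 2 now the highest), 77.4%, 74.1% and 39.1% were covered over at least 50%, and the library left out held a wide peak in 22.4%, 20.6% and 8.44%. With the better-scoring 50% of each list, 83.2% were in all 3, 70.4%, 59.6% and 58.7% were 1 peak, 85.6% (normoxia) and 57.4% (replicate 2) were covered over at least 50%, and replicate 2, left out, held a peak in 83.1%. With lists of 14256 peaks each, 59.8% (normoxia) and 52.9% (replicate 1) were 1 peak. Requiring the library left out to cover 50% of the region gave 93.5% for replicate 1 and 63.2% for replicate 2. Without the regions of replicate 1 alone, an alternative added after seeing the data, 93.9% were in all 3 and normoxia covered at least 50% of 96.2%.

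Leaving out each library in turn gave 152 to 190 regions, of which 86.2% to 97.4% were in both remaining libraries. The share listed as 1 peak ran from 55.3% to 76.0% in normoxia, 49.5% to 66.9% in replicate 1 and 39.5% to 50.0% in replicate 2. The share covered over at least 50% ran from 92.6% to 97.4%, 96.1% to 98.4% and 74.3% to 83.2%. No paired analysis was possible because normoxia and hypoxia share only 1 replicate number. Counts of transcription starts and of listed genes under the alternatives were not run. Read depth is unknown, so a missing peak does not show missing CDK8.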
